A study of Homo sapiens with 9 samples.

Results

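The genes described here encode mainly the chaperones of the cytosol and the mitochondria, the proteins that fold other proteins, hold them soluble or pass them on for destruction. Some, such as DNAJC10 of the endoplasmic reticulum (ER), work elsewhere and were taken in by their symbol. All of these genes were measured on Affymetrix arrays in A549, a cell line grown from a human lung adenocarcinoma. Members were the genes whose symbol begins with HSPA, HSPB, HSPD1, HSPE1, HSPH1, HSP90A, DNAJA, DNAJB, DNAJC, CCT2 to CCT8 or BAG1 to BAG6, without HSPA5, DNAJB9, DNAJB11, DNAJC3 and antisense genes. Only a probe set annotated to exactly 1 gene could stand for a member, and where a gene had several, the brightest of them by its average over all 9 arrays did. The rule gave 79 members of the 19775 genes on the array, read from 186 probe sets, and 9 further symbols that match the letters were left out. The cells of the tested group received 25 nM of an siRNA against Nrf2 (gene symbol NFE2L2). One control group received 25 nM of a non-targeting siRNA, called NS siRNA, and the other, mock, received only the transfection reagent, Lipofectamine 2000. Each group held 3 biological replicates with 1 array each, and RNA was taken 96 h after transfection. With 1 Nrf2 siRNA and no rescue among the groups, effects of losing NRF2 and off-target effects of the oligonucleotide cannot be told apart.

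HSP70 proteins bind short exposed stretches of a client and release them in a cycle driven by ATP. Proteins with a J domain (the DNAJA, DNAJB and DNAJC genes, also called HSP40) bring clients to HSP70 and start the ATP step, while HSP110, BAG and HSPBP1 proteins act as nucleotide exchange factors that end it. HSP90 takes over clients such as kinases and steroid receptors, the CCT ring folds actin and tubulin in a closed chamber, HSPD1 and HSPE1 form the corresponding chamber in mitochondria, and small heat shock proteins hold unfolded clients without ATP. Under heat or proteotoxic stress the transcription factor HSF1 binds heat shock elements, repeats of GAA in alternating orientation, in front of many of these genes.

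NFE2L2, the siRNA target, stood at log2 levels of 10.12, 10.32 and 10.30 after Nrf2 siRNA, against 12.09, 12.03 and 12.15 after NS siRNA and 12.07, 11.92 and 11.98 in mock. The 9 arrays had medians of 7.51 to 7.57, and the median SD between replicates was 0.04 for the members and 0.06 for all genes on the log2 scale. The number of arrays limits the precision. Of the epithelial markers KRT8, KRT18, KRT19, EPCAM and CDH1, 3 of 5 were called higher after Nrf2 siRNA than after NS siRNA and 4 of 5 than in mock. Between the controls, 4 of 5 were also called higher after NS siRNA than in mock. The shares of all genes called higher in these 3 comparisons were 21.0%, 16.4% and 15.6%. KRT19 averaged 12.61 ± 0.08 after Nrf2 siRNA, 11.46 ± 0.05 after NS siRNA and 10.66 ± 0.05 in mock (SD, n = 3 each). Of the 6 measured markers of immune, endothelial and fibroblast cells 0 were called in any of the 3 comparisons, and their log2 differences between Nrf2 siRNA and NS siRNA lay between -0.10 and 0.00. The part of these marker shifts in the chaperone results was not tested.

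The promoters of the members were read for heat shock elements because HSF1 is the best known shared regulator of these families. RefSeq (GRCh38.p14) gave a start for 70 of the 79 members, and the 250 bases before each start were searched on both strands. The 2-unit element searched was GAANNTTC, which reads the same on both strands, and the 3-unit element was GAANNTTC followed by any 2 bases and another GAA, on either strand. The 3-unit element was found in 5 of the 70 members (7.14%), against 0.557% of all 27305 genes. The members were HSP90AA1, HSP90AB1, HSPA6, HSPD1 and DNAJB6. The 2-unit element, which lies within every 3-unit match, was found in 15 of 70 (21.4%), against 7.05% of all genes. The antioxidant response element, which NRF2 binds together with a small MAF protein, was found in 2 of 70 (2.86%), HSPA12A and HSPB3, against 3.22% of all genes. The ER stress response element was found in 0 of 70, against 0.0916% of all genes. A match is a stretch of letters, not a measured binding site, and no match says only that the letters are not in this window. The 120 bases around the elements follow for the 5 members with the 3-unit element, then for DNAJB1, the marker with the 2-unit element, and for HSPA4, the member that fell most, whose window held neither. Capitals mark the letters of heat shock elements; the windows are chr14:102087067-102087186, minus strand; chr6:44247751-44247870, plus strand; chr2:197499971-197500090, minus strand; chr7:157336819-157336938, plus strand; chr1:161524412-161524531, plus strand; chr19:14518398-14518517, minus strand; and chr5:133051893-133052012, plus strand.
HSP90AA1: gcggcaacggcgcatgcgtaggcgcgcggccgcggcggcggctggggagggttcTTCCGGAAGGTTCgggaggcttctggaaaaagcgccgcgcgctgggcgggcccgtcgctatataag
HSP90AB1: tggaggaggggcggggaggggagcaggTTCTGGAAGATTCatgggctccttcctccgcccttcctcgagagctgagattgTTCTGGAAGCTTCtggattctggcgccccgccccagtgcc
HSPD1: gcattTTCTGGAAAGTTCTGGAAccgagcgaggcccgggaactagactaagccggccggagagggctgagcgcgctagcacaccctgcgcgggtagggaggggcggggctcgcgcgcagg
DNAJB6: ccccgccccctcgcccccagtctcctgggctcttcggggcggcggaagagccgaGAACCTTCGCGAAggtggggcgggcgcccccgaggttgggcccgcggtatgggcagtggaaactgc
HSPA6: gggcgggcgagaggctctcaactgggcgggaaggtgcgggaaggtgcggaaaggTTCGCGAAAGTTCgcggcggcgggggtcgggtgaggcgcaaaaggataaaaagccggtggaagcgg
DNAJB1: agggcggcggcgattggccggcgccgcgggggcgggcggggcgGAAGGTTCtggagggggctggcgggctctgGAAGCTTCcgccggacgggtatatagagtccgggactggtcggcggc
HSPA4: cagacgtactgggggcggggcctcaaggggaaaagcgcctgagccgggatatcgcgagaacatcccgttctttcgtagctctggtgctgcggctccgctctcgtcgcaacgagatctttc

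Against NS siRNA, 52 of the 79 members passed the test (limma, Benjamini-Hochberg adjusted p under 0.05 over all 19775 genes), 17 higher and 35 lower after Nrf2 siRNA. Of all genes 47.6% passed in that comparison, 21.0% higher and 26.6% lower, so the share of members called higher (21.5%) was near the background and the share called lower (44.3%) was above it. Against mock, 42 members passed, 17 higher and 25 lower, where 33.0% of all genes did (16.4% higher and 16.7% lower). These shares of all genes are the background for the counts by family and by list given below. Most members are bright, and bright genes pass more often: among the 69 members above 7.54, the median of all values, 50 passed against NS siRNA (17 higher and 33 lower), and among all 13151 genes above it 59.9% did (28.7% higher and 31.2% lower). For the same 69 members against mock 42 passed, 17 higher and 25 lower, beside 44.5% of the bright genes (22.0% higher and 22.5% lower). The median log2 difference of the members was -0.12 against NS siRNA and -0.06 against mock, beside -0.05 and -0.02 for all genes. Nearly all differences were small. By the brightest probe set of each gene, only DNAJB6 differed from NS siRNA by 2-fold or more, no member did so from mock, and the median size of the called differences against NS siRNA was 1.25-fold. Of all genes 2.83% and 1.44% were called at 2-fold or more in these comparisons. Dimmer probe sets reached 2-fold above NS siRNA for BAG1 (2.48-fold), DNAJC10 (2.48-fold), DNAJC12 (2.15-fold) and DNAJC22 (2.15-fold), and above mock for DNAJC12 (2.21-fold) and DNAJC15 (2.16-fold). At 1.5-fold or more, 9 members were called against NS siRNA and 3 against mock, beside 9.55% and 4.87% of all genes. Without mock replicate 1, 11 members in place of 17 were called higher against mock.

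The controls also differed from each other. Between NS siRNA and mock 30 members passed, 18 higher and 12 lower after NS siRNA, where 30.8% of all genes did (15.6% higher and 15.2% lower). Among the 69 brighter members 28 passed, 16 higher and 12 lower, beside 41.4% of the bright genes (20.0% higher and 21.4% lower). DNAJB6 was the 1 member called at 2-fold or more between the controls, and also the 1 at 1.5-fold or more, beside 0.895% and 3.77% of all genes. The 3 NS siRNA arrays enter both that comparison and the one with Nrf2 siRNA, so a member that stood low after NS siRNA appears higher after Nrf2 siRNA and lower against mock by the same arrays. All 3 Nrf2 siRNA arrays lay above the 6 control arrays in 14 members and below them in 30, beside 14.9% and 17.0% of all genes. In 13 members all 3 Nrf2 siRNA arrays lay above the 6 control arrays with a call against both controls, and in 22 all lay below them with a call against both; 12.3% and 12.1% of all genes did so. In arrays of bulk RNA, fewer cells that use a gene and less of its RNA per cell cannot be told apart. With 3 arrays a group, p-values rest on the spread between these cultures, which limma combines with a prior spread drawn from all genes.

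**Figure D1:**
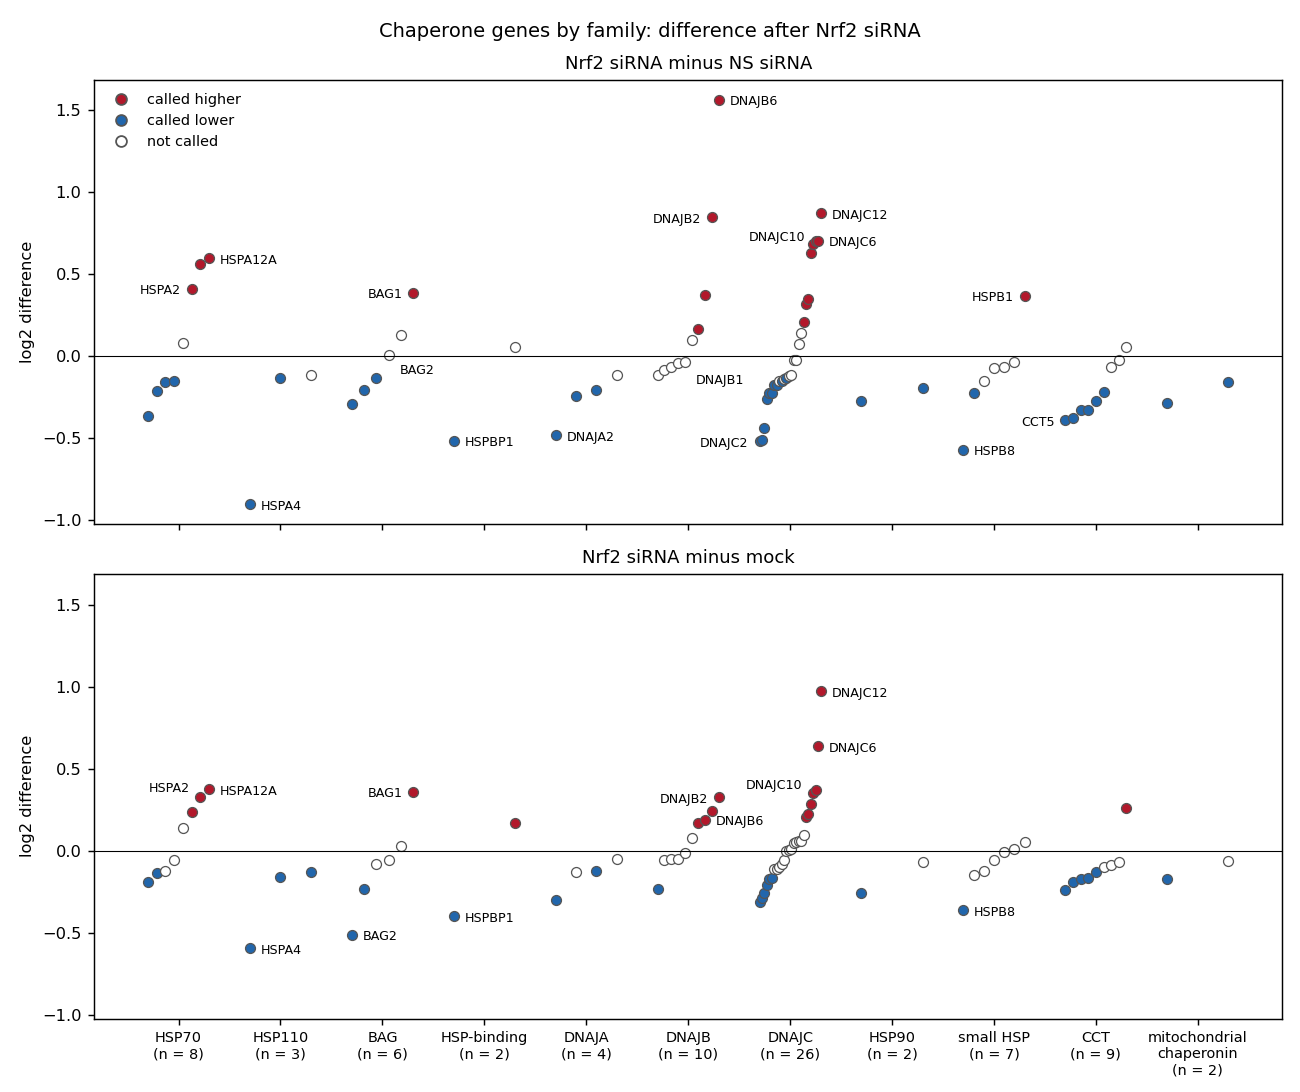
Each point is 1 of the 79 chaperone genes, placed by family along the horizontal axis and by its log2 difference along the vertical axis, for Nrf2 siRNA minus NS siRNA above and Nrf2 siRNA minus mock below; filled points passed limma at an adjusted p under 0.05 (red higher, blue lower) and open points did not. The HSP110, HSP90, DNAJA and mitochondrial chaperonin genes lie below 0 in both panels, the called DNAJB genes lie above 0 against NS siRNA, and DNAJB6, at 1.56 against NS siRNA, stands at 0.19 against mock.

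The HSP70 genes themselves moved both ways. Of 8 members, 3 rose and 4 fell against NS siRNA, and 3 rose and 2 fell against mock. HSPA9, the HSP70 of the mitochondrial matrix known as mortalin, had log2 levels of 13.01, 12.98 and 12.89 after Nrf2 siRNA, against 13.34, 13.32 and 13.29 after NS siRNA and 13.18, 13.14 and 13.12 in mock. The 3 Nrf2 siRNA arrays were below all 6 controls. It fell by 0.36 ± 0.05 against NS siRNA and by 0.19 ± 0.05 against mock on the log2 scale (SE; limma adjusted p = 2.65e-05 and 0.0061), and 3 of its 4 probe sets had that sign against NS siRNA. HSPA14, which works at the ribosome, fell by 0.21 against NS siRNA and by 0.13 against mock. HSPA1L and HSPA6, relatives of the inducible HSP70, each fell by 0.15 against NS siRNA only, at low log2 levels (means after Nrf2 siRNA of 7.92 and 7.54). Leaving out 1 array ended several of these weaker calls: that of HSPA14 against mock was lost without NS siRNA replicate 1 or any one of the 3 mock and 3 Nrf2 siRNA arrays (adjusted p 0.0505 to 0.119), that of HSPA1L without mock replicate 3, NS siRNA replicates 1 or 3 or Nrf2 siRNA replicates 1 or 2 (0.0567 to 0.149), and that of HSPA6 if either NS siRNA replicate 3 or Nrf2 siRNA replicate 2 was dropped (0.0592 to 0.0596).

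Among the HSP70 genes that rose was HSPA12A, a distant relative of the family, with log2 levels of 9.44, 9.47 and 9.44 after Nrf2 siRNA, 8.93, 8.89 and 8.73 after NS siRNA and 8.98, 9.14 and 9.10 in mock. All 3 Nrf2 siRNA arrays stood above the 6 controls, by 1.51-fold over NS siRNA and 1.30-fold over mock on average (adjusted p = 2.57e-06 and 0.000279), while its other, dimmer probe set differed by -0.06 and did not pass. HSPA2, known for its high level in testis, reached 12.14, 12.34 and 12.25 after Nrf2 siRNA, against 11.85, 11.82 and 11.82 after NS siRNA and 11.86, 11.95 and 11.94 in mock, which is 1.33-fold and 1.25-fold higher (adjusted p = 3.04e-05 and 0.000376); its groups did not overlap either. HSPA13, an HSP70 of the microsome, rose by 0.57 ± 0.07 against NS siRNA (adjusted p = 1.49e-05) and by 0.23 ± 0.07 against mock (0.0167). One Nrf2 siRNA array of HSPA13, at 10.07, lay below the highest mock array, at 10.08, and the call against mock was lost without mock replicate 1 or Nrf2 siRNA replicates 1 or 2 (adjusted p 0.0619 to 0.0743). HSPA12B was not called in any comparison.

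The inducible HSP70 genes HSPA1A and HSPA1B are near-identical copies, and no probe set was annotated to HSPA1A alone, so neither is a member. The probe sets that carry both fell against both controls. Probe set 202581_at, annotated to HSPA1B and HSPA1A, read 9.46, 9.64 and 9.46 after Nrf2 siRNA, against 10.56, 10.45 and 10.59 after NS siRNA and 10.59, 10.44 and 10.57 in mock. The controls lay together and the Nrf2 siRNA arrays about 1 log2 unit below them: the difference was -1.01 ± 0.07 against each control (SE; limma over the 42892 annotated probe sets, adjusted p = 9.3e-08 against NS siRNA and 2e-07 against mock). Probe set 200799_at, with the same annotation, differed by -0.40 and -0.56, and 200800_s_at, annotated to HSPA1L as well, by -0.59 and -0.84, all called. These readings belong to no single gene. The constitutive HSP70 gene HSPA8 was likewise covered only together with SNORD14C and SNORD14D. Its 4 probe sets lay at means of 13.80 to 14.51 after Nrf2 siRNA, with differences from NS siRNA of -0.02 to -0.05, none called.

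The HSP110 genes encode exchange factors built like HSP70. HSPA4, also called APG2, had log2 levels of 11.52, 11.66 and 11.58 after Nrf2 siRNA, against 12.53, 12.46 and 12.46 after NS siRNA and 12.19, 12.18 and 12.17 in mock. No array of one group entered the range of another, and the Nrf2 siRNA level was 53.5% of that after NS siRNA and 66.2% of that in mock. The log2 differences were -0.90 ± 0.05 and -0.60 ± 0.05 (SE; adjusted p = 7.8e-09 and 6.94e-07), with NS siRNA above mock by 0.31 ± 0.05. Of the 4 HSPA4 probe sets, 3 fell alike (-0.88 to -0.90 against NS siRNA), and the dimmest, at a mean of 7.77 after Nrf2 siRNA, differed by 0.03. HSPA4L fell by 0.13 against each control, and HSPH1 (HSP105) by 0.16 against mock, while its difference of -0.11 from NS siRNA did not pass (adjusted p = 0.0552). These small calls did not hold when some arrays were left out in turn. That of HSPA4L against NS siRNA was lost without any NS siRNA array or Nrf2 siRNA replicates 1 or 2 (adjusted p 0.0525 to 0.0723). Its difference was still -0.135 to -0.119 in those fits. The HSPA4L call against mock was lost without mock replicates 1 or 2 or the same Nrf2 siRNA arrays (0.0789 to 0.129), and that of HSPH1 without mock replicate 1 (0.0504).

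Further exchange factors and regulators are found among the BAG and HSP-binding genes. HSPBP1, which releases nucleotide from HSP70, read 10.86, 10.88 and 10.78 after Nrf2 siRNA, 11.36, 11.35 and 11.35 after NS siRNA and 11.23, 11.31 and 11.18 in mock. Its Nrf2 siRNA arrays were all below the controls, at 70.1% of the NS siRNA level and 75.7% of the mock level (adjusted p = 1.38e-06 and 2.42e-05), and NS siRNA and mock were not called apart. BAG1 moved the other way, with 11.01, 11.06 and 11.11 after Nrf2 siRNA, against 10.62, 10.66 and 10.74 after NS siRNA and 10.75, 10.74 and 10.61 in mock. It rose 1.31-fold and 1.28-fold (adjusted p = 5.77e-05 and 0.000183), and all 3 BAG1 probe sets rose against both controls. They disagreed in size: the dimmest, 229720_at, was 2.48-fold above NS siRNA and 1.49-fold above mock, with NS siRNA called 0.74 below mock on the log2 scale. BAG4 fell by 0.21 and 0.23, BAG5 by 0.29 against NS siRNA only, and BAG3, the partner of HSPB8 in clearing damaged filaments, by 0.13 against NS siRNA only. The BAG3 call was lost without mock replicates 1 or 3, any NS siRNA array, or Nrf2 siRNA replicates 1 or 3 (adjusted p 0.0515 to 0.123). BAG6 did not pass in any comparison, and HSPBAP1 rose by 0.17 against mock only, a call lost without mock replicates 1 or 3 or Nrf2 siRNA replicate 2 (0.0598 to 0.0785).

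**Figure D2:**
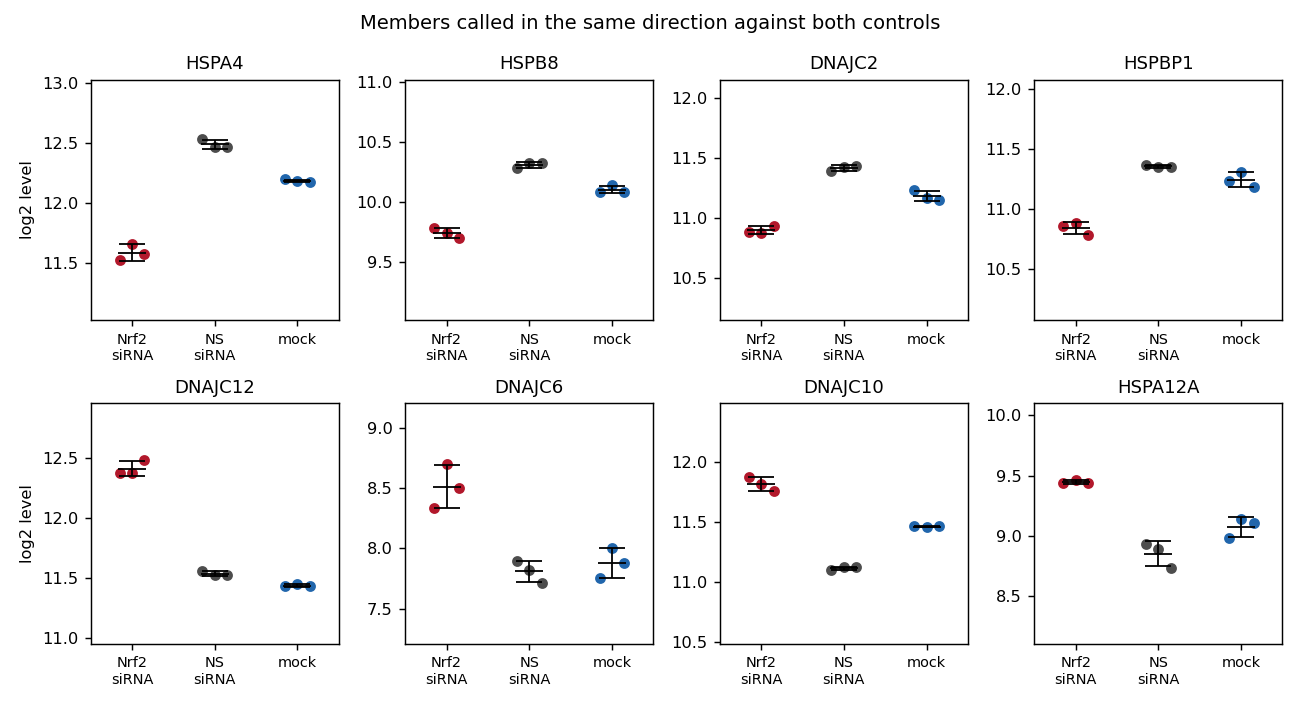
Log2 levels of 8 members in each of the 9 arrays, with 1 point per array; the long bar is the group mean, the short bars are 1 SD, and each panel has its own vertical range of equal width. HSPA4, HSPB8, DNAJC2 and HSPBP1 lie below both control groups after Nrf2 siRNA, and DNAJC12, DNAJC6, DNAJC10 and HSPA12A lie above them.

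Most genes of HSP90 and the closed folding chambers fell against NS siRNA. Both cytosolic HSP90 genes fell against NS siRNA. HSP90AA1, the inducible form, read 14.01, 14.12 and 14.08 after Nrf2 siRNA, against 14.36, 14.33 and 14.33 after NS siRNA and 14.35, 14.31 and 14.34 in mock. The Nrf2 siRNA arrays lay below both controls, which lay together, and the levels were 83.0% and 83.4% of those after NS siRNA and in mock (adjusted p = 0.000225 and 0.000473). All 4 HSP90AA1 probe sets fell against both. HSP90AB1, the constitutive form, was at 14.08 in each of the 3 Nrf2 siRNA arrays, against 14.27 in each NS siRNA array and 14.16, 14.16 and 14.12 in mock. It fell by 0.19 ± 0.04 against NS siRNA (adjusted p = 0.00139), and its difference of -0.07 from mock did not pass (95% interval -0.15 to 0.02).

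Of the 9 members named for the CCT ring, 6 fell and 0 rose against NS siRNA, and 5 fell and 1 rose against mock. Against NS siRNA, CCT5 had the largest fall of the 9, with log2 levels of 13.41, 13.34 and 13.27 after Nrf2 siRNA, 13.69, 13.79 and 13.70 after NS siRNA and 13.52, 13.51 and 13.50 in mock. Mock lay between the other groups, and the differences were -0.39 ± 0.05 and -0.17 ± 0.05 (SE; adjusted p = 2.29e-05 and 0.0151). Its second probe set, much dimmer, went the other way, by 0.15 and 0.19, both called. CCT7 read 13.01, 13.05 and 12.90 after Nrf2 siRNA, against 13.28, 13.36 and 13.31 after NS siRNA and 13.22, 13.25 and 13.22 in mock, falls of 0.33 and 0.24. CCT2, CCT6A and CCT8 fell by 0.33, 0.37 and 0.27 against NS siRNA and by 0.13, 0.17 and 0.19 against mock. CCT4 fell by 0.22 against NS siRNA, and its -0.10 against mock did not pass. CCT3 stood apart from its partners in the ring, at 13.36, 13.44 and 13.41 after Nrf2 siRNA, 13.45, 13.42 and 13.40 after NS siRNA and 13.47, 13.51 and 13.42 in mock. Its groups overlapped and the difference from NS siRNA was -0.02 (95% interval -0.12 to 0.08).

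The calls of the CCT genes against mock were the weaker ones. That of CCT2 was lost without any one mock array or Nrf2 siRNA replicates 1 or 3 (adjusted p 0.0657 to 0.101), that of CCT5 without mock replicate 1 or Nrf2 siRNA replicate 3 (0.0506 to 0.0655), and that of CCT6A without any one mock array or Nrf2 siRNA replicate 1 (0.056 to 0.0894). CCT6B, the testis form of that subunit, was 0.26 higher than in mock, which was lost without mock replicates 1 or 2 or Nrf2 siRNA replicate 2 (0.0641 to 0.0741), and CCT8L2 was not called. TCP1, the first subunit of the ring, was not measured by a probe set of its own. Prefoldin and phosducin-like proteins hand clients to the ring. Of their 7 measured genes, 5 fell against NS siRNA and 1 fell and 1 rose against mock. Beside them, 26.6% of all genes fell against NS siRNA, and 16.7% fell and 16.4% rose against mock. For the bright genes these shares were 31.2%, 22.5% and 22.0%. VBP1 fell by 0.41 and 0.20, PFDN4 by 0.54 against NS siRNA only, and PDCL by 0.36 against NS siRNA only.

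In mitochondria, HSPE1, the lid of the chamber, read 12.93, 13.04 and 13.00 after Nrf2 siRNA, against 13.29, 13.26 and 13.28 after NS siRNA and 13.18, 13.10 and 13.21 in mock. It fell by 0.29 ± 0.05 and 0.17 ± 0.05 (SE; adjusted p = 0.00025 and 0.0118), the second of these lost without mock replicate 3 (0.0535). HSPD1, which forms the chamber, fell by 0.16 ± 0.04 against NS siRNA (adjusted p = 0.00868), at 14.29, 14.38 and 14.35 after Nrf2 siRNA, 14.49, 14.48 and 14.52 after NS siRNA and 14.39, 14.41 and 14.41 in mock. All 3 Nrf2 siRNA arrays of HSPD1 lay below the controls, yet the difference of -0.06 from mock did not pass. HSPD1 and HSPE1 are neighbours driven from a shared region in the human genome. Of 14 other mitochondrial partners and proteases, 11 fell and 0 rose against NS siRNA, and 11 fell and 0 rose against mock. The shares called lower in these comparisons were 26.6% and 16.7% of all genes, and 31.2% and 22.5% of the bright genes. LONP1, the matrix protease, fell by 0.87 and 0.70, TRAP1, the mitochondrial HSP90, by 0.72 and 0.41, and PAM16, part of the import motor that HSPA9 drives, by 0.71 and 0.36. Against mock, only 1 of the 2 TRAP1 probe sets had that sign. The median log2 difference of these 14 genes was -0.31 against NS siRNA and -0.33 against mock.

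**Figure D3:**
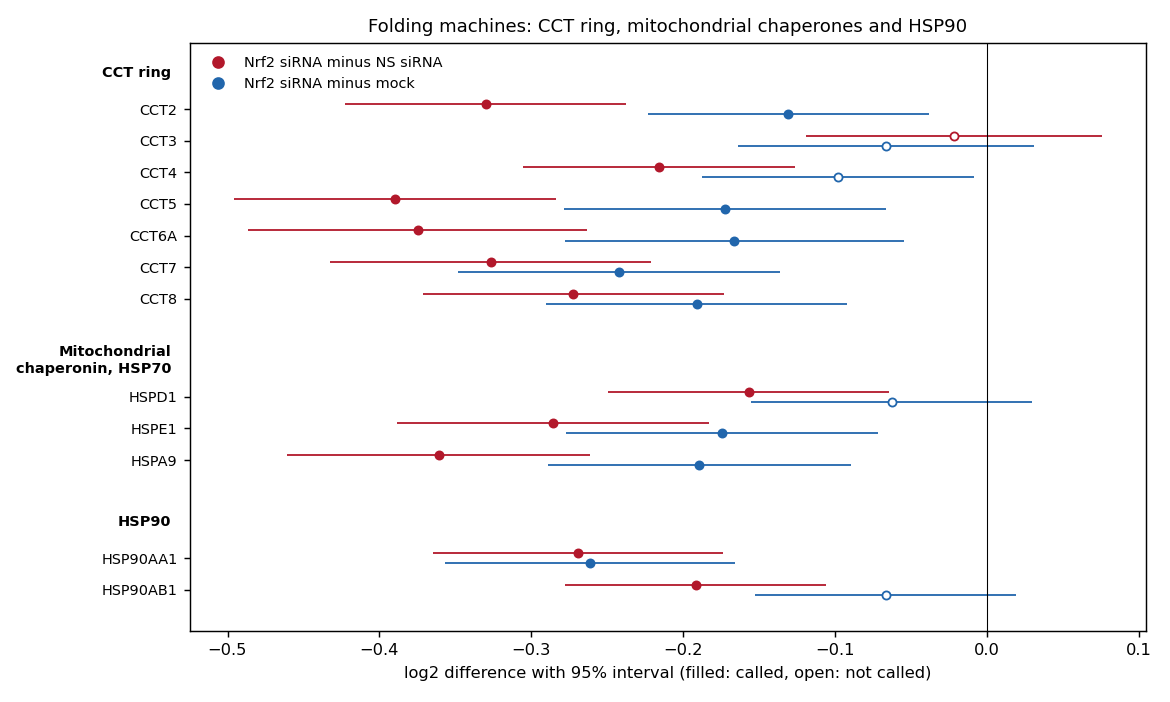
Log2 differences with 95% intervals for CCT2 to CCT5, CCT6A, CCT7 and CCT8 of the CCT ring, the mitochondrial chaperonin with HSPA9, and HSP90, with Nrf2 siRNA minus NS siRNA in red and Nrf2 siRNA minus mock in blue; filled points passed limma at an adjusted p under 0.05. All points lie below 0, those against mock mostly nearer to it, and CCT3 is the one gene with both points open.

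The co-chaperones of HSP90 and HSP70 outside the member families moved in the direction of the HSP90 genes. Of 19 measured, 12 fell and 3 rose against NS siRNA, and 12 fell and 1 rose against mock, with median log2 differences of -0.33 and -0.18. Of all genes 26.6% fell and 21.0% rose against NS siRNA, and 16.7% fell and 16.4% rose against mock. Of the bright genes 31.2% fell and 28.7% rose against NS siRNA, and 22.5% fell and 22.0% rose against mock. CHORDC1, an HSP90 co-chaperone, read 10.86, 11.00 and 11.12 after Nrf2 siRNA, against 12.16, 12.07 and 12.16 after NS siRNA and 11.94, 11.89 and 11.99 in mock. Its Nrf2 siRNA arrays were far below both controls, at 45.5% of the NS siRNA level and 51.8% of the mock level (adjusted p = 1.41e-08 and 1.53e-07). STUB1 (CHIP), the ubiquitin ligase that marks clients of HSP70 and HSP90, fell by 0.69 and 0.46, and PPID, a prolyl isomerase bound to HSP90, by 0.51 and 0.43. Of the 3 PPID probe sets, 1 was called higher than after NS siRNA. The gene that rose against both was CDC37L1, a relative of the kinase co-chaperone CDC37, by 0.39 and 0.36, while CDC37 itself fell by 0.45 and 0.21.

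Calls among the small heat shock genes were near or below the shares of all genes. Of 7 members, 1 rose (14.3%) and 2 fell (28.6%) against NS siRNA, beside 21.0% and 26.6% of all genes. Against mock 0 rose and 1 fell (14.3%), beside 16.4% and 16.7% of all genes. HSPB8, which pairs with BAG3, read 9.79, 9.74 and 9.70 after Nrf2 siRNA, against 10.28, 10.33 and 10.33 after NS siRNA and 10.09, 10.14 and 10.09 in mock. The Nrf2 siRNA arrays were the lowest, at 67.4% of the NS siRNA level and 77.7% of the mock level (adjusted p = 2.53e-07 and 2.8e-05). HSPB1 (HSP27), the major small heat shock protein of epithelial cells, gave 13.59, 13.65 and 13.55 after Nrf2 siRNA, 13.24, 13.23 and 13.21 after NS siRNA and 13.50, 13.66 and 13.62 in mock. Here the NS siRNA arrays stood apart and the other groups overlapped: the difference was 0.37 ± 0.05 from NS siRNA (adjusted p = 4.51e-05) and 0.01 ± 0.05 from mock (95% interval -0.10 to 0.12). HSPB3 fell by 0.22 against NS siRNA at a mean level of 7.29 after Nrf2 siRNA, a call lost without NS siRNA replicates 1 or 2 or Nrf2 siRNA replicate 2 (adjusted p 0.0574 to 0.0897). HSPB2, HSPB6, HSPB7 and HSPB9 passed in no comparison, with group means of 5.98 to 8.53.

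The DNAJA genes encode the general J domain partners of HSP70. Of 4 members, 3 fell against NS siRNA, 2 fell against mock and 0 rose against either. DNAJA3, the mitochondrial member, read 11.53, 11.48 and 11.50 after Nrf2 siRNA, against 11.69, 11.72 and 11.73 after NS siRNA and 11.79, 11.85 and 11.78 in mock; it fell by 0.21 and 0.30 (adjusted p = 0.00116 and 0.000101). DNAJA1 fell by 0.24 against NS siRNA and 0.12 against mock, the second lost without any one mock array or Nrf2 siRNA replicates 1 or 3 (adjusted p 0.0584 to 0.114). DNAJA2 gave 11.33, 11.45 and 11.18 after Nrf2 siRNA, 11.84, 11.81 and 11.75 after NS siRNA and 11.50, 11.41 and 11.43 in mock. Its Nrf2 siRNA and mock arrays overlapped, the fall of 0.48 ± 0.06 against NS siRNA was called (adjusted p = 3.67e-05), the -0.13 against mock was not, and a second DNAJA2 probe set was called 0.14 higher than in mock. DNAJA4 was not called.

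Of the 10 DNAJB genes, 4 rose, 0 fell and 6 were not called against NS siRNA, and 4 rose and 1 fell against mock. The median log2 difference from NS siRNA was 0.03, and 5 of the 10 differences were below 0. DNAJB1, the main heat-inducible J domain protein of the cytosol, gave 12.18, 12.15 and 12.18 after Nrf2 siRNA, 12.24, 12.25 and 12.13 after NS siRNA and 12.28, 12.21 and 12.20 in mock. The differences of -0.04 ± 0.05 from NS siRNA and -0.06 ± 0.05 from mock did not pass (95% intervals -0.14 to 0.06 and -0.16 to 0.04), while its dimmer probe set, 200664_s_at, differed by -0.15 and -0.17, both called among the annotated probe sets. The marker therefore gave no single answer across its probe sets, and neither reading was a rise. DNAJB2 (HSJ1), which passes ubiquitinated clients on to the proteasome, read 9.63, 9.76 and 9.71 after Nrf2 siRNA, against 8.76, 8.96 and 8.84 after NS siRNA and 9.35, 9.46 and 9.32 in mock. The 3 groups were fully apart, and DNAJB2 rose 1.80-fold and 1.25-fold (adjusted p = 1.58e-07 and 0.00108).

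DNAJB6, which keeps polyglutamine proteins from aggregating, had the largest difference of any member. Probe set 209015_s_at, the one annotated to it alone, gave 10.96, 11.08 and 11.04 after Nrf2 siRNA, 9.55, 9.45 and 9.38 after NS siRNA and 10.81, 10.87 and 10.83 in mock. The NS siRNA arrays were the ones that stood apart: NS siRNA lay 1.38 ± 0.05 below mock (SE; adjusted p = 2.57e-09), and Nrf2 siRNA 1.56 ± 0.05 above NS siRNA (1.98e-10) but 0.19 ± 0.05 above mock (0.0149). The call against mock was lost without mock replicate 1 or Nrf2 siRNA replicate 2 (adjusted p 0.0573 to 0.0584). Probe sets 208810_at and 208811_s_at, annotated to both TMEM135 and DNAJB6, did not show a difference of that size: against NS siRNA they gave -0.12, not called, and 0.29, called, and neither passed against mock.

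Of the remaining DNAJB genes, DNAJB14 rose by 0.37 and 0.24, and DNAJB5 by 0.17 against each control. The other 2 DNAJB14 probe sets did not pass, and the DNAJB5 calls were lost without NS siRNA replicate 3 (adjusted p 0.0679) and without mock replicate 2 (0.0665). DNAJB4 stood 0.24 below mock and was not called against NS siRNA. DNAJB7, DNAJB8, DNAJB12 and DNAJB13 passed in no comparison.

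**Figure D4:**
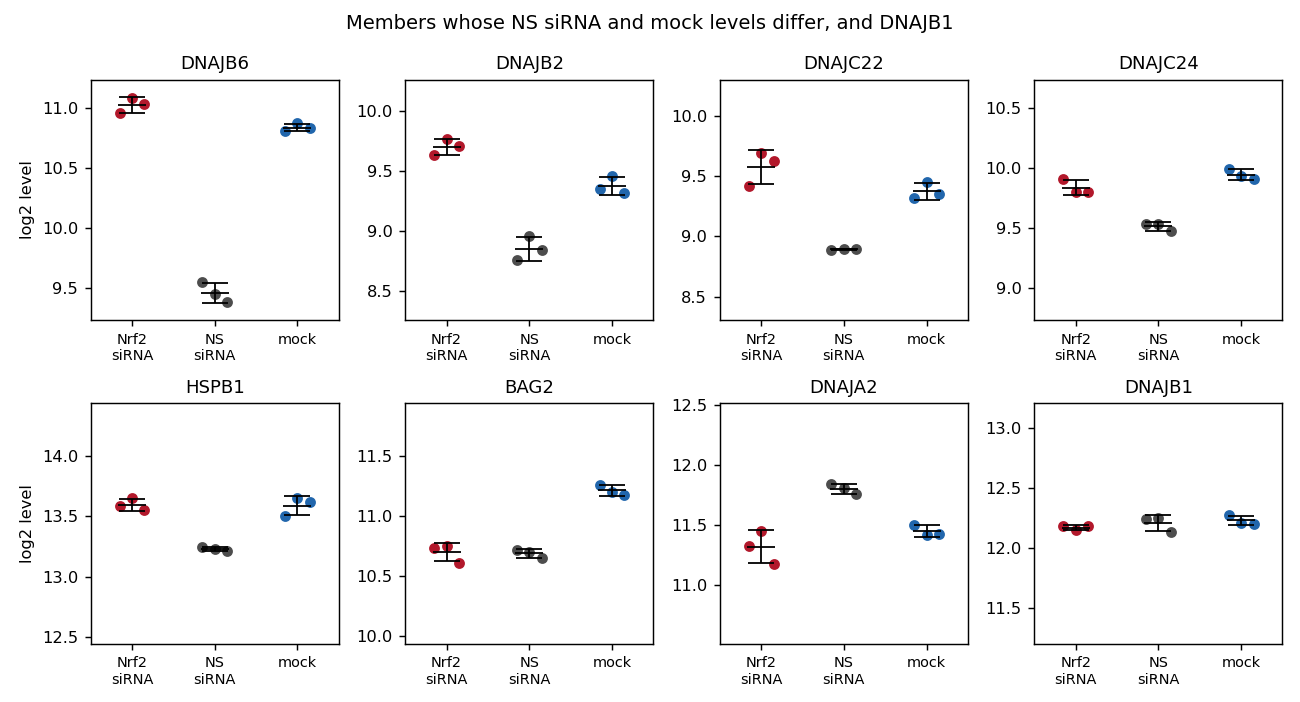
Log2 levels in each of the 9 arrays for DNAJB1 and for members chosen for their difference between NS siRNA and mock, with 1 point per array, the group mean as the long bar and 1 SD as the short bars. DNAJB1 is shown as the marker and was not called between the controls. For DNAJB6 and HSPB1 the NS siRNA arrays lie below the Nrf2 siRNA and mock arrays, and for BAG2 the mock arrays lie above both siRNA groups.

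The DNAJC genes share little besides the J domain and work in many places of the cell. Of 26 members, 8 rose and 10 fell against NS siRNA, and 7 rose and 6 fell against mock; the median log2 differences were -0.12 and 0.01. DNAJC12, a partner of the aromatic amino acid hydroxylases, had the largest difference from mock among the members. It read 12.38, 12.37 and 12.48 after Nrf2 siRNA, against 11.56, 11.52 and 11.52 after NS siRNA and 11.43, 11.45 and 11.43 in mock. The Nrf2 siRNA arrays stood clear of both controls, 1.83-fold and 1.96-fold higher (adjusted p = 6.85e-09 and 5.28e-09), NS siRNA and mock were not called apart, and all 3 probe sets rose. DNAJC6 (auxilin), which strips clathrin from vesicles, gave 8.34, 8.70 and 8.50 after Nrf2 siRNA, 7.89, 7.82 and 7.71 after NS siRNA and 7.75, 8.01 and 7.88 in mock. It rose 1.63-fold and 1.55-fold (adjusted p = 2.31e-05 and 0.000103), while its other probe set, at a mean of 5.20, did not pass.

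DNAJC10 (ERdj5), a disulfide reductase inside the ER that the rule takes in by its name, read 11.87, 11.82 and 11.76 after Nrf2 siRNA, against 11.10, 11.12 and 11.12 after NS siRNA and 11.46, 11.45 and 11.46 in mock. The groups were fully apart, with mock in the middle, and the rises were 1.63-fold and 1.28-fold (adjusted p = 3.87e-08 and 3.46e-05). All 5 DNAJC10 probe sets rose against NS siRNA. DNAJC4 rose by 0.63 and 0.37, with 2 of its 5 probe sets called that way and the others within 0.04 of NS siRNA. DNAJC22 rose by 0.69 against NS siRNA and by 0.20 against mock, the second lost without mock replicates 1 or 3 or Nrf2 siRNA replicates 2 or 3 (adjusted p 0.0918 to 0.13). DNAJC5 (cysteine string protein), a chaperone of synaptic and secretory vesicles, rose by 0.21 and 0.29. DNAJC27, a Rab-like protein with a J domain, rose by 0.35 and 0.22, the second lost without mock replicate 1 or Nrf2 siRNA replicate 3 (0.0629 to 0.0631). DNAJC24 (DPH4), needed for the diphthamide modification of elongation factor, was 0.32 above NS siRNA and not called against mock.

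Among the DNAJC genes that fell, DNAJC2 (MPP11), which sits on the ribosome with HSPA14, read 10.89, 10.87 and 10.94 after Nrf2 siRNA, against 11.39, 11.42 and 11.44 after NS siRNA and 11.23, 11.17 and 11.16 in mock. The groups did not overlap, and the levels were 69.9% and 82.0% of those after NS siRNA and in mock (adjusted p = 5.99e-07 and 0.000202). DNAJC16 fell by 0.51 and 0.31, with all 3 probe sets called lower against NS siRNA. DNAJC8, a splicing-associated protein, fell by 0.44 and 0.17, DNAJC30, a mitochondrial protein, by 0.23 and 0.26, and DNAJC14 by 0.22 and 0.17. The DNAJC14 call against mock was lost without mock replicates 1 or 2 or Nrf2 siRNA replicate 3 (adjusted p 0.0504 to 0.0705). DNAJC9, a histone chaperone, fell by 0.18 and 0.21 by its brightest probe set, and a dim one was called 0.25 higher than after NS siRNA.

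Against NS siRNA alone, DNAJC17 fell by 0.26, DNAJC19 of the mitochondrial import motor by 0.17, DNAJC1 by 0.15 and DNAJC5G by 0.13. The DNAJC1 call was lost without NS siRNA replicates 1 or 2 or Nrf2 siRNA replicates 2 or 3 (adjusted p 0.0516 to 0.0974), and that of DNAJC5G without NS siRNA replicates 2 or 3 or Nrf2 siRNA replicates 1 or 3 (0.0613 to 0.0959). A second DNAJC19 probe set was called 0.21 higher. DNAJC5B, DNAJC7, DNAJC11, DNAJC13, DNAJC15, DNAJC18, DNAJC21 and DNAJC28 passed against neither control by their brightest probe set. For DNAJC15, a mitochondrial import protein, that probe set differed by -0.15 from NS siRNA, and the dimmer 218435_at gave 6.47 ± 0.06 after Nrf2 siRNA, 5.55 ± 0.10 after NS siRNA and 5.36 ± 0.07 in mock, called 0.92 and 1.11 higher. In all, 8 members had a probe set called against NS siRNA in the direction opposite to the brightest one: BAG2, CCT5, DNAJC7, DNAJC9, DNAJC15, DNAJC19, DNAJC21 and HSPH1. Of the 41 members called against NS siRNA that have more than 1 probe set, all probe sets had the same sign in 30.

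Several members also differed between the controls. BAG2, which inhibits the ligase STUB1, read 10.73, 10.76 and 10.61 after Nrf2 siRNA, 10.72, 10.70 and 10.65 after NS siRNA and 11.26, 11.21 and 11.18 in mock. Both siRNA groups overlapped and lay below mock, by 0.51 ± 0.05 for Nrf2 siRNA and 0.53 ± 0.05 for NS siRNA (SE; adjusted p = 4.55e-06 and 4.93e-06). For DNAJB2, DNAJC22, DNAJC24, DNAJC10 and HSPB1, NS siRNA was below mock by 0.52, 0.48, 0.43, 0.35 and 0.36, and for DNAJA2 above it by 0.35. After NS siRNA 4 of 9 CCT genes were called above mock and 0 below it, while 4 of 10 DNAJB genes were called below it and 0 above. Beside them, 15.6% of all genes were called above and 15.2% below, and of the bright genes 20.0% and 21.4%. The CCT4 call was lost without any mock or NS siRNA array or Nrf2 siRNA replicate 1 (limma adjusted p 0.0531 to 0.125). That of DNAJB14 was lost without any mock array, NS siRNA replicates 2 or 3 or Nrf2 siRNA replicate 1 (0.0552 to 0.181). The values of these families in the comparisons with Nrf2 siRNA therefore depend on which control is used.

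The regulators and the other targets of the heat shock response did not move as a block. HSF1, its main transcription factor, read 9.91, 9.95 and 9.87 after Nrf2 siRNA, 10.05, 10.04 and 9.98 after NS siRNA and 9.97, 10.22 and 10.02 in mock. Its differences of -0.12 and -0.16 did not pass (limma adjusted p = 0.137 and 0.0673). HSF4 was 0.13 below NS siRNA, a call lost without any one of the NS siRNA arrays, mock replicate 1 or Nrf2 siRNA replicates 1 or 2 (adjusted p 0.0531 to 0.139), and HSF5 and the HSF1 inhibitor HSBP1 were not called. Among 4 measured targets outside the member families, SERPINH1 (HSP47), the collagen chaperone of the ER, read 12.45, 12.40 and 12.41 after Nrf2 siRNA, against 10.83, 10.86 and 10.81 after NS siRNA and 11.30, 11.45 and 11.30 in mock. It stood far above both controls, 3.01-fold and 2.10-fold higher (adjusted p = 9.82e-11 and 5.23e-09). ZFAND2A (AIRAP), induced by arsenite, was 0.66 below NS siRNA and 0.02 below mock, which was not called, and CLU (clusterin), a secreted chaperone, fell by 0.41 and 0.20. UBB, the remaining target, differed by 0.05 and 0.07, neither called. Of the 5 members with the longer heat shock element, HSP90AA1, HSP90AB1, HSPD1 and HSPA6 were lower than after NS siRNA and DNAJB6 was higher. Against mock, HSP90AA1 was called lower and DNAJB6 0.19 higher, while HSP90AB1, HSPD1 and HSPA6 were not called. For DNAJB6, NS siRNA itself lay 1.38 below mock. The part of the element in these differences was not tested.

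The ER chaperones outside the members were mostly called above NS siRNA. Of 15 genes, 12 rose and 0 fell against NS siRNA, with a median log2 difference of 0.35. Against mock 7 rose and 3 fell, with a median of 0.07, and NS siRNA was called below mock in 12 and above it in 1. Of all genes 21.0% rose against NS siRNA, 16.4% rose and 16.7% fell against mock, and in 15.2% NS siRNA was called below mock. Of the bright genes 28.7% rose against NS siRNA, 22.0% rose and 22.5% fell against mock, and in 21.4% NS siRNA was called below mock. PDIA4, a disulfide isomerase, was 0.61 above NS siRNA and 0.18 above mock, and CRELD2 was 0.67 and 0.17 above them, the CRELD2 call against mock being lost without mock replicate 1 or Nrf2 siRNA replicate 3 (adjusted p 0.0628 to 0.0678). DNAJB9 (ERdj4), a J domain protein of the unfolded protein response, rose by 0.49 and 0.75. HSPA5 (BiP), the HSP70 of the ER, differed by 0.01 and -0.06, neither called.

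**Figure D5:**
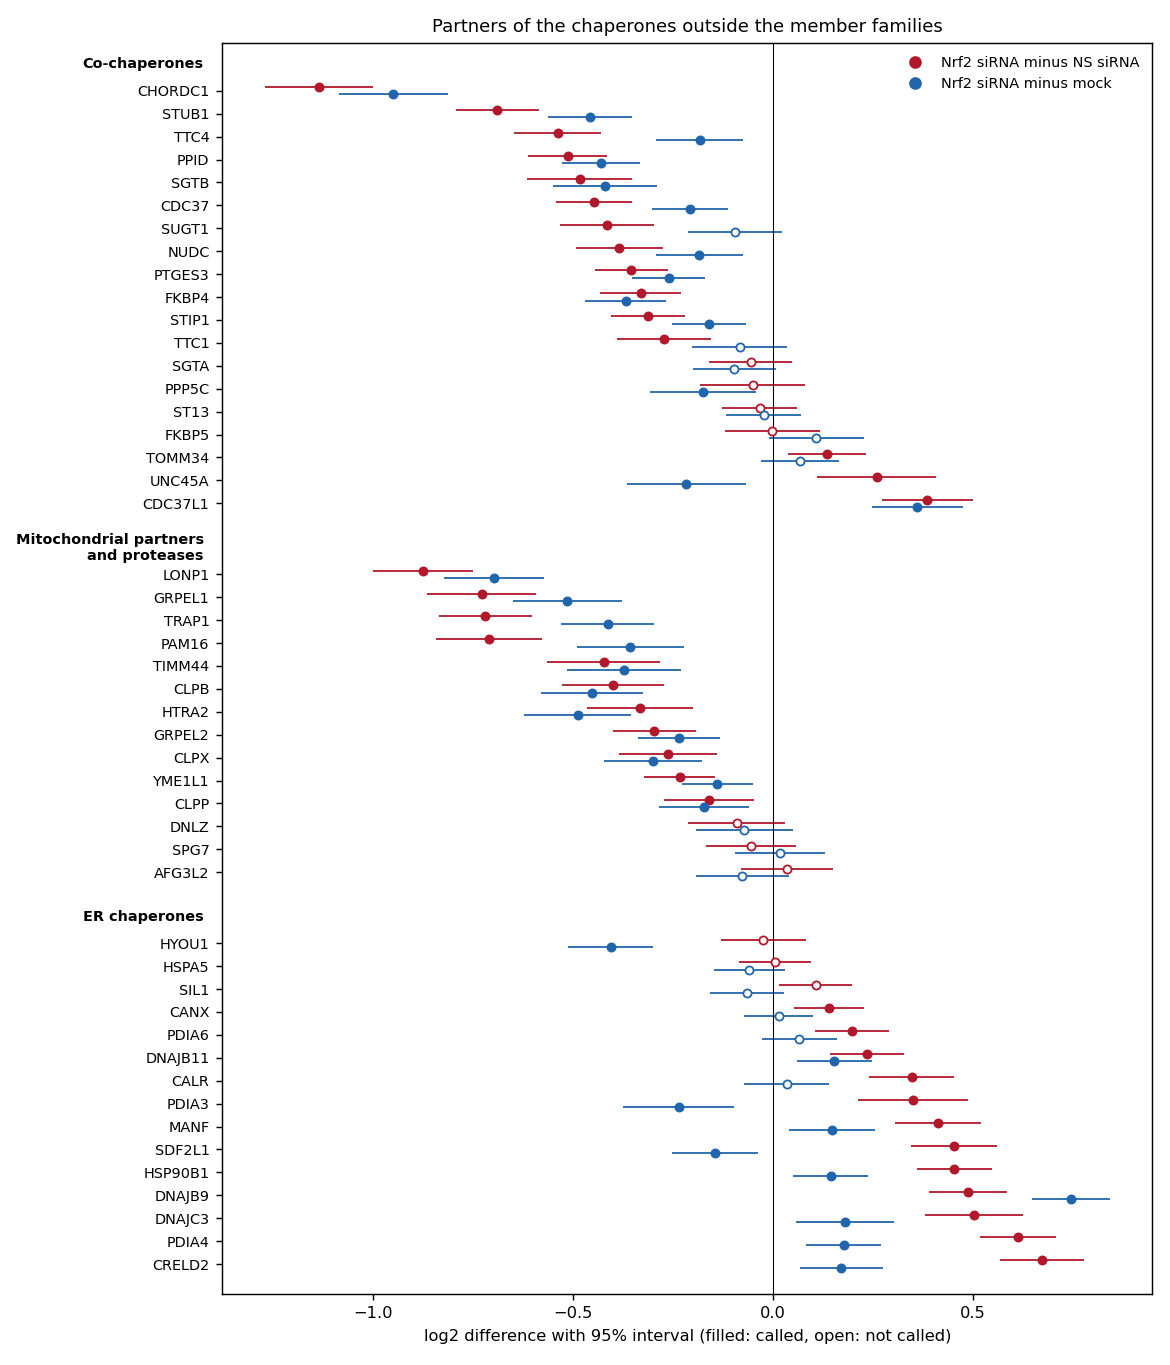
Log2 differences with 95% intervals for co-chaperones of HSP90 and HSP70, mitochondrial partners and proteases, and ER chaperones, with Nrf2 siRNA minus NS siRNA in red and Nrf2 siRNA minus mock in blue; filled points passed limma at an adjusted p under 0.05. Most co-chaperone and mitochondrial points lie left of 0, the ER chaperones lie mainly right of 0 against NS siRNA, and their points against mock lie nearer to 0 except for HSPA5, HYOU1 and DNAJB9.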

How the data were processed

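Total RNA was labelled as biotinylated cRNA and read on Affymetrix arrays of 54675 probe sets. The authors deposited log2 levels from RMA, per the submitters' processing notes, which here give no version, and detection calls and scan dates were not used here. Values ran from 3.60 to 15.06. Of the probe sets, 41091 carried 1 gene, 1801 several and 11721 were unnamed here; 62 controls were left out. Symbols were updated through RefSeq (GRCh38.p14), which matched 41037.

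Groups came from the titles. limma 3.58.1 (under R 4.3.3) fitted 1 linear model to all 9 arrays (lmFit, then eBayes; 6 residual degrees of freedom, 6.12 from the prior), with two-sided p adjusted by Benjamini-Hochberg over 19775 genes and a threshold of 0.05. Several-gene and dimmer probe sets came from the same fit over 42892 probe sets. An SD is over 3 arrays, and an SE and a 95% interval are the model's. Same-numbered arrays deviated together with r of -0.21 to 0.23 (9 pairs), and different-numbered arrays with r of -0.34 to 0.20 (18 pairs). These ranges overlap and do not settle whether the numbers pair the arrays, so the main fit used no pairing. The fit was tested on simulated data. Figures were drawn with matplotlib 3.10.9.

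The members, gene lists and rules were chosen with earlier results of these data known. Named were DNAJB1; up to 24 members called alike against both controls and beyond the 6 control arrays, by size against NS siRNA; the 8 largest called differences between NS siRNA and mock; the 6 brightest; the brightest per family; up to 3 genes per list by adjusted p; and NFE2L2. Other members and probe sets appear so that each member is accounted for, and CDC37L1, CDC37, HSPA5 and HSBP1 were picked after their values were seen. Alternatives were equal array medians, quantile normalization, a filter on dim genes, other choices of probe set, other variance models, the 2 groups alone, a replicate block, leaving out each array and a threshold of 0.01.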

Additional observations from a re-analysis of the deposited data

How the results depend on the processing

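The counts of members called kept within 1.5 times their value under the alternatives run, except that at a threshold of 0.01 the members called against mock were 10 higher and 16 lower, and those of NS siRNA against mock 10 higher, and that without mock replicate 1 those higher against mock were 11. Leaving out each array in turn gave 17 to 18 higher and 30 to 36 lower against NS siRNA, 11 to 17 and 17 to 25 against mock, and 12 to 19 and 10 to 12 for NS siRNA against mock. With the replicate block they were 18 and 37, 17 and 26, and 17 and 11, in the same order. Whether the numbers pair the arrays is not settled. Over single genes, 5683 results were counted as unchanged, 254 no longer passed, 115 newly passed and 11 turned round. A result counted as turned round if its sign changed and it passed before or after. Sign changes of results that passed neither before nor after are among the 5683. The 11 came with another choice of probe set. Averaging over each gene's probe sets, CCT5 against mock was 0.0091, and DNAJC15 and DNAJC19 against NS siRNA 0.33 and 0.0173. Taking the most variable probe set (interquartile range), DNAJC15, DNAJC7, DNAJC9 and HSPH1 against NS siRNA were 0.92, 0.22, 0.25 and 0.38, and DNAJA2, DNAJC27, DNAJC9 and PDIA4 against mock 0.14, -0.14, 0.0797 and -0.07. Detection calls were not used, so the distance of a dim probe set from background is not known here.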

Other observations

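CRYAB (alpha-B crystallin) is a small heat shock protein outside the member symbols. After Nrf2 siRNA, CRYAB differed more from each control than any small heat shock member did by its brightest probe set. The log2 levels of CRYAB were 9.27, 9.38 and 9.11 after Nrf2 siRNA, against 8.58, 8.42 and 8.48 after NS siRNA and 9.50, 9.86 and 9.56 in mock. Nrf2 siRNA was called 0.76 ± 0.09 above NS siRNA and 0.38 ± 0.09 below mock (SE; limma adjusted p = 1.52e-05 and 0.00529), so its direction depends on the control. CRYAA, its relative of the lens, was 0.34 and 0.20 lower at a mean level of 7.30 after Nrf2 siRNA, and ODF1 was not called. The CRYAA call against mock was lost without mock replicates 2 or 3 or Nrf2 siRNA replicates 1 or 2 (adjusted p 0.0551 to 0.102).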
